A study of Mus musculus with 4 samples.

Results

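Long intergenic noncoding RNAs (lincRNA) and antisense transcripts were examined in RNA from the bone marrow of mice at 3 months of age, called mature, and at 24 months, called elderly. A member was any Ensembl transcript annotated with the transcript biotype lincRNA or antisense whose counts summed to over 20 across the 4 libraries. Of 3948 transcripts with these biotypes, 1335 (33.8%) passed, out of 95883 transcripts in the count files. They comprised 675 lincRNA transcripts of 606 genes and 660 antisense transcripts of 595 genes. Of the others, 1589 had 0 counts and 1024 had 1 to 20 counts. At the edge of the rule, 25 transcripts had a sum of exactly 20, with a mean of 0.379 to 0.435 CPM (counts per 1000000 counts of the scaled library), and were left out, and 19 had a sum of 21, with a mean of 0.389 to 0.453 CPM, and were kept.

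All animals were male C57Bl/6 mice of WT genotype, and age was the labelled difference between the groups. There were 2 mature and 2 elderly libraries. Their titles name single mice while the methods describe RNA pooled from several mice per group, so whether a library is a mouse or a pool cannot be told from these sources. Whole marrow is given as the source in the labels, but the methods describe sorted Lin-LEPR+ cells, the leptin receptor-positive fraction that holds skeletal stem/progenitor cells (SSPCs). All 9 markers of LEPR+ stromal cells on a list (Lepr, Cxcl12, Kitl, Adipoq, Ebf3, Foxc1, Pdgfra, Pdgfrb and Vcam1) were counted, with a summed level of 18485 to 30244 CPM per library. The labels give poly(A) RNA for all 4 samples, and the libraries held 11930137 and 11730849 counts in mature and 10472117 and 15650518 counts in elderly mice. The comparison asked which of these noncoding RNAs differed with age.

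LincRNAs are spliced or single-exon transcripts that lie between protein-coding genes, and antisense transcripts run across a gene on the opposite strand. Most are present at low levels and in few cell types, while a few such as Malat1, a nuclear RNA enriched at splicing speckles, are among the most abundant RNAs of a cell. Some act on a neighbouring gene, some are imprinted or act in chromatin silencing, and others serve mainly as host transcripts from whose exons or introns microRNAs or small nucleolar RNAs (snoRNAs) are cut.

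The start regions of 6 members on which the results below turn are shown first. Each window runs 5′ to 3′ on the strand of the transcript and covers 250 bases before the annotated start in lower case and the first 50 transcribed bases in capitals (build NCBIM37). Malat1-001 and Gm17589-201 were the most abundant members, Gm2115-201 and 4921534H16Rik-001 were lower in elderly libraries, and Gm15987-001 and A430104N18Rik-001 were higher. The windows lie at chr19:5802622-5802921, chr7:19886070-19886369, chr7:91677235-91677534, chr9:97903589-97903888, chr6:128924998-128925297 and chr11:87568829-87569128, on the minus strand for Malat1-001, Gm17589-201 and Gm15987-001 and on the plus strand for the others.
Malat1-001: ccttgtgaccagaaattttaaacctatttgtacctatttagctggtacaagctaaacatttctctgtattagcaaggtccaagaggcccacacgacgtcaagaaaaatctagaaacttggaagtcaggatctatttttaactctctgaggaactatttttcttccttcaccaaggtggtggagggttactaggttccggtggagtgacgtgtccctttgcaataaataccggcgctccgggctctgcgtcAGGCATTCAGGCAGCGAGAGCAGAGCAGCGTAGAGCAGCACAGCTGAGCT
Gm17589-201: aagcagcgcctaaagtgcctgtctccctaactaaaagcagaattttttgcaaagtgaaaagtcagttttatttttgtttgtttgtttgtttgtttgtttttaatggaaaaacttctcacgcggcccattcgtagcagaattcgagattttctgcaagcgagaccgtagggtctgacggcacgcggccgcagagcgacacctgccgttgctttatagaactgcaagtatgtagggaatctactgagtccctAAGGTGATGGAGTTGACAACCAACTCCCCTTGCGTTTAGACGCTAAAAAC
Gm2115-201: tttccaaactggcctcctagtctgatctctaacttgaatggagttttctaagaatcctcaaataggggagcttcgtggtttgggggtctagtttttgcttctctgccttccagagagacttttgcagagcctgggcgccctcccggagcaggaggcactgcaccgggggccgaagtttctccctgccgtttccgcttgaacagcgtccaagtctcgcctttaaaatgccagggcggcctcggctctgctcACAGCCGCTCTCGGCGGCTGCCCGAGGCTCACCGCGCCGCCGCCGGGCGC
4921534H16Rik-001: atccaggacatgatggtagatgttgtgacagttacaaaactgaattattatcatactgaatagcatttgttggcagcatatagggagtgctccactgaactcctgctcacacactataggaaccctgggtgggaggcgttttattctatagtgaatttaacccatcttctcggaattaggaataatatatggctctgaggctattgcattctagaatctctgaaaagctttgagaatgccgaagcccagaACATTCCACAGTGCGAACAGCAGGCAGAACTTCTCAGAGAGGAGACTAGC
Gm15987-001: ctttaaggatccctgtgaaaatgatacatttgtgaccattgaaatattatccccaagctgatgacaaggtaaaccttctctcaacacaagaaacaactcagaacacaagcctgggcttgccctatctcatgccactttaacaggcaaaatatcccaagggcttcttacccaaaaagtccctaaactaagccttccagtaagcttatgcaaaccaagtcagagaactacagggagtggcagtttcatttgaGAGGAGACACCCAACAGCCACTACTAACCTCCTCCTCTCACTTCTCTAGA
A430104N18Rik-001: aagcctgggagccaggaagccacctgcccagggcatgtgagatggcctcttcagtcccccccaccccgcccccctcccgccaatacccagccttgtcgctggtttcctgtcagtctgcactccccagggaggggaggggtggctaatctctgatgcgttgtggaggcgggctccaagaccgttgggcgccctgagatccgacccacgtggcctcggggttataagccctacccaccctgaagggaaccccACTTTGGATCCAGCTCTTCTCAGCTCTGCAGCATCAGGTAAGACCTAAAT
CpG dinucleotides in these windows numbered 21 for Gm2115-201, 15 for Gm17589-201, 10 for Malat1-001 and for A430104N18Rik-001, 4 for 4921534H16Rik-001 and 0 for Gm15987-001. The letters TATAAA and CCAAT, which do not overlap each other, were searched on both strands: TATAAA occurred in the window of Gm17589-201 and CCAAT in that of A430104N18Rik-001.

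Several members are annotated as the host of a microRNA, and the mature products of 5 host loci are given here from RefSeq (GRCm38.p6) with the seed, bases 2 to 8, in capitals. The RNA-seq libraries measured the host transcripts and not these products.
mmu-miR-142a-3p: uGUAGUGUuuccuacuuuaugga
mmu-miR-142a-5p: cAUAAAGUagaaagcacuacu
mmu-miR-155-5p: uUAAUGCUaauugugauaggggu
mmu-miR-17-5p: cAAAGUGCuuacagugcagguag
mmu-miR-199a-3p: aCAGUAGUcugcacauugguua
mmu-miR-199a-5p: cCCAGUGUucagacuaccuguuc
mmu-miR-19a-3p: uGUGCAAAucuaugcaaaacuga
mmu-miR-19b-3p: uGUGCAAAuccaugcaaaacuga
mmu-miR-20a-5p: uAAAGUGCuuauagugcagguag
mmu-miR-214-3p: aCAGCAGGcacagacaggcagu
mmu-miR-223-3p: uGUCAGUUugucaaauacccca
miR-17-5p and miR-20a-5p share 1 seed, and miR-19a-3p and miR-19b-3p share another, all 4 from the Mir17hg locus. The seeds of the other 7 products differed from these and from each other.

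Most members had few exons. The median exon length was 1774 bases for lincRNA and 760.5 bases for antisense members, the median number of exons was 2 for both, and 20 of 1335 members had a single exon. Introns began with GT and ended with AG in 89.1% of 1325 lincRNA and 94.6% of 1214 antisense introns, against 98.3% of introns of protein-coding transcripts. Windows of the same 300 bases around the start held 10 or more CpG dinucleotides in 45.9% of lincRNA and 25.5% of antisense members, against 20.6% of the 1589 lincRNA and antisense transcripts at 0 counts, 46.5% of all annotated transcripts and 70.2% of protein-coding transcripts with over 20 counts. TATAAA was found in 11.9% of the members' windows and 12.6% of all windows, and CCAAT in 32.6% and 35.6%.

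The position of a member relative to other genes bears on what its counts hold. A base was taken as a transcript's own where the exons of no other annotated transcript cover it on either strand. All 284 lincRNA and antisense transcripts without an own base had 0 counts, including 81 that are covered by exons of the opposite strand alone, although the library kit keeps strand. Reads of a gene and of its antisense partner can therefore not be told apart. The same holds for the counts of other genes given below, which are sums over transcripts and cover only bases of 1 transcript, so that a gene at or near 0 is not shown to be silent and levels of different genes are not comparable. For 410 antisense members (62.1%) and 166 lincRNA members (24.6%), every own base lay inside the body of a gene on the opposite strand, while 137 antisense (20.8%) and 360 lincRNA members (53.3%) had all own bases outside any other gene. In these bulk samples, fewer cells of a type and less RNA per cell cannot be told apart either.

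The members together held 5.43% and 5.50% of the counts of the mature libraries and 5.25% and 4.32% of those of the elderly libraries. The mean share was 5.47% ± 0.0481 (SD, n = 2) in mature and 4.78% ± 0.655 (SD, n = 2) in elderly mice, a difference of -0.685 percentage points (exact permutation test, two-sided, p = 0.333, the smallest p that 2 against 2 libraries can give). Both elderly shares lay below both mature shares, and elderly 2 was the lowest of the 4 libraries. Malat1-001 alone accounted for 82.2% of all counts in members. Its share was 4.49% ± 0.0606 in mature and 3.93% ± 0.494 in elderly libraries (SD, n = 2 each, exact permutation p = 0.333), and without it the members held 0.974% ± 0.0125 and 0.856% ± 0.160 (exact permutation p = 0.667), where the ages overlapped. The share of antisense members was 0.324% ± 0.0244 in mature and 0.288% ± 0.0484 in elderly libraries and also overlapped (exact permutation p = 0.667).

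**Figure D1:**
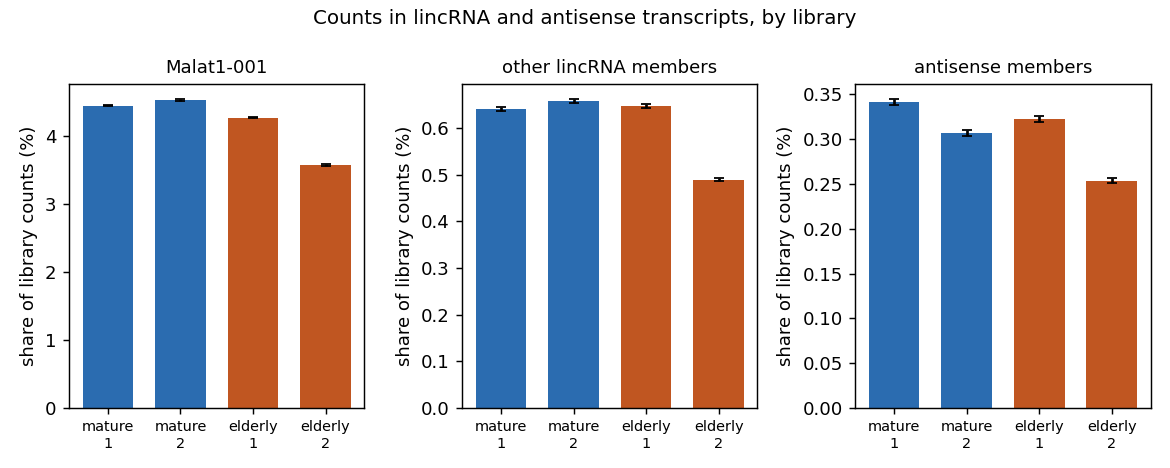
Share of each library's counts (%, y axis from 0) in Malat1-001, in the other 674 lincRNA members and in the 660 antisense members, for the 2 mature (blue) and 2 elderly (orange) libraries. Bars give 1 library each and error bars its 95% Wilson interval, which covers counting error only. Elderly 2 is the lowest of the 4 libraries in all 3 panels, and elderly 1 lies within the mature range for the other lincRNA and the antisense members.

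Few members were abundant. The mean over the 4 libraries reached 1 CPM for 980 members, 10 CPM for 181 and 100 CPM for 9. To compare transcripts, the mean CPM was divided by the kilobases of own exonic sequence. On that scale Malat1-001 (chr19:5795690-5802671) stood at 8901 CPM per kb and the next, Gm17589-201 (chr7:19883609-19886119), at 476 CPM per kb, while the other 13 of the 15 members with the highest mean CPM lay between 15.9 and 172 CPM per kb.

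Malat1-001 had 531098 and 532284 counts in mature and 447871 and 559943 counts in elderly libraries. Scaled to library size this was 44995 ± 412 CPM in mature and 39082 ± 1164 CPM in elderly libraries (SD, n = 2), with both elderly libraries lower. The log2 fold change of elderly over mature was -0.20 ± 0.22 (SE, edgeR quasi-likelihood test, adjusted p = 0.885).

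Gm17589-201 is an intergenic transcript of 2 exons that lies 1951 bases beyond the end of Fosb, a stress-inducible AP-1 transcription factor gene, on the same strand. It had 14067 and 17287 counts in mature and 9787 and 8187 in elderly libraries, which is 1327 ± 203 and 716 ± 221 CPM (SD, n = 2). Each elderly value was below each mature value, with a log2 fold change of -0.89 ± 0.25 (SE, edgeR quasi-likelihood adjusted p = 0.0749). DESeq2 put the adjusted p at 0.0191, a replicate block at 0.00772, and over all 13 alternatives it ran from 0.00705 in the robust fit to 1.0 in the exact test at a dispersion of 0.2, with the same sign throughout. Counts of Fosb were 165844 and 130158 in mature and 110423 and 148566 in elderly libraries. Scaled to library size this was 13959, 11074, 9839 and 10151 CPM in mature 1, mature 2, elderly 1 and elderly 2, so that Fosb too was lower in both elderly libraries (log2 fold change -0.38 ± 0.19, SE, edgeR adjusted p = 0.528). Gm17589-201 amounted to 8.48% and 13.3% of the Fosb counts in mature and 8.86% and 5.51% in elderly libraries, and the ages overlapped in this ratio.

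Next in rank was Gm17056-001, an antisense transcript on chr12:40925243-40927692 with 3606, 1913, 1564 and 1865 counts in mature 1, mature 2, elderly 1 and elderly 2. Mature 1 stood apart from the other libraries, and the log2 fold change was -0.81 ± 0.27 (SE, edgeR adjusted p = 0.20), with a range of -1.20 to -0.29 when 1 library at a time was left out. Dnm3os-001, a single-exon antisense RNA that lies wholly within Dnm3 and carries the miR-199a-2 and miR-214 hairpins, had 2321 and 1912 counts in mature and 2021 and 1812 in elderly libraries. The ages overlapped on the CPM scale and the log2 fold change was -0.24 ± 0.25 (SE, edgeR adjusted p = 0.881). Snhg5-201, a snoRNA host, had the highest log2 fold change of the 15: it had 776 and 864 counts in mature and 1308 and 1210 in elderly libraries, a log2 fold change of 0.52 ± 0.25 (SE, edgeR adjusted p = 0.581).

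Dleu2-201, a transcript of Dleu2, the host gene of miR-15a and miR-16-1, had 951 and 1024 counts in mature and 625 and 824 in elderly libraries (80.0, 87.1, 55.7 and 56.3 CPM). Both elderly libraries were lower, with a log2 fold change of -0.58 ± 0.24 (SE, edgeR adjusted p = 0.441). Gm17403-201, a lincRNA with 97.8% of its own bases inside Pcbp2 on the opposite strand, had 1260 and 1089 counts against 810 and 829, again with no overlap of ages on the CPM scale and a log2 fold change of -0.63 ± 0.25 (SE, edgeR adjusted p = 0.372). The remaining 8 (Gm16908-201, 4632419I22Rik-001, Gdap10-201, Gm17275-201, Gm17024-001, C330006A16Rik-001, Gm16624-201 and 5430417L22Rik-001) had log2 fold changes from -0.37 to 0.32. Of these, Gdap10-201 lies wholly inside Nampt and Gm17024-001 wholly inside Ifrd1 on the same strand. All own bases of Gm17275-201 lie inside H3f3a, and all those of Gm16624-201 inside Nub1, on the opposite strand. Unspliced RNA of any of these genes would be counted in the member inside it. In all, 0 of the 15 passed an adjusted p of 0.05 in the edgeR quasi-likelihood test, and 5 had an unadjusted p under 0.05. So did 11.8% of all members, 11.2% of all transcripts with a count sum over 20 and 8.57% of all transcripts tested. In DESeq2 1 of the 15 passed, and 0 passed in the exact test at a fixed dispersion of 0.2.

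**Figure D2:**
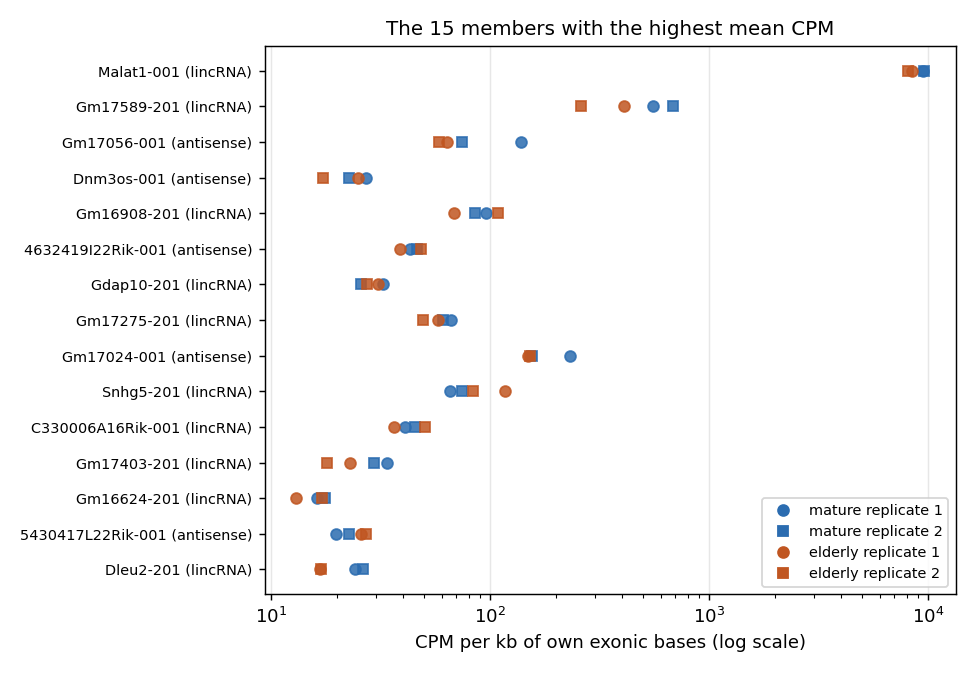
CPM per kb of own exonic bases (x axis, log scale) of the 15 members with the highest mean CPM, 1 point per library (blue mature, orange elderly, circle replicate 1, square replicate 2). Malat1-001 lies around 8901 CPM per kb, to the right of all others, Gm17589-201 shows both elderly points left of both mature points, and the 4 points of most others lie close together.

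A list of 59 known noncoding RNAs was followed by role. Of these, 14 had members among the lincRNA and antisense transcripts (23 transcripts), 10 were annotated with another biotype (among them Neat1, Xist, Meg3 and Gas5), 5 were at or under the count minimum and 30 had no transcript under the listed symbol in this annotation. The median log2 fold change of the 23 transcripts was -0.07, against -0.04 for all members and -0.0031 for all transcripts tested. In the edgeR quasi-likelihood test 0 of 23 had an adjusted p under 0.05 and 4 an unadjusted p under 0.05. The unadjusted share was 11.8% of all members, 11.2% of all transcripts with a count sum over 20 and 8.57% of all transcripts tested. For the 23 transcripts DESeq2 gave 0 adjusted and 4 unadjusted, and the exact test 0 and 1. The lowest adjusted p was 0.197, for Dleu2-202, with 893 and 870 counts in mature and 551 and 575 in elderly libraries (log2 fold change -0.76 ± 0.25, SE).

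Among imprinted RNAs, Airn-001, which is transcribed antisense to the insulin-like growth factor 2 receptor gene Igf2r and silences it on the paternal allele, had 230, 271, 188 and 224 counts in mature 1, mature 2, elderly 1 and elderly 2 (log2 fold change -0.40 ± 0.29, SE, edgeR adjusted p = 0.771). The other Airn members, Airn-006, Airn-002, Airn-004 and Airn-005, had log2 fold changes of -0.13 ± 0.31, -0.07 ± 0.65, -0.03 ± 0.43 and 0.89 ± 0.78 (SE). For Igf2r the log2 fold change was 0.009 ± 0.18 (SE). Rian-201, a snoRNA and miRNA host of the Dlk1-Dio3 region, had 20, 30, 4 and 26 counts, low in elderly 1 alone. Nespas-002, antisense to Gnas, had 14, 23, 5 and 18 counts. Neither of these low-count RNAs separated the ages, with log2 fold changes of -0.94 ± 0.63 and -0.86 ± 0.66 (SE, edgeR adjusted p = 0.758 and 0.784).

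The snoRNA hosts were not uniform. Snhg1-202 had 138 and 144 counts in mature and 191 and 134 in elderly libraries, Snhg7-201 had 114 and 136 against 193 and 116, and Snhg4-201 had 45 and 41 against 168 and 60. In all 3 the highest library was elderly 1, while elderly 2 lay below both mature libraries in CPM for Snhg1-202 and Snhg7-201 and above them for Snhg4-201. The log2 fold changes were 0.13 ± 0.34, 0.24 ± 0.36 and 1.38 ± 0.46 (SE, edgeR adjusted p = 0.973, 0.948 and 0.211), and that of Snhg4-201 ranged from 0.17 to 2.03 with 1 library left out. Hoxb3os-002, antisense to the Hoxb3 locus, had 94, 51, 51 and 118 counts, and Miat-201 had 12, 4, 30 and 14. The ages overlapped for both.

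Members that enclose small RNA genes on their own strand were 36 in number, of which 19 held 31 miRNA genes and 18 held 23 snoRNA genes. Mir17hg-001, the host of the miR-17-92 cluster, had 570 and 524 counts in mature and 594 and 657 in elderly libraries, a log2 fold change of 0.08 ± 0.25 (SE, edgeR adjusted p = 0.975). The following transcripts were chosen after their values were seen, and none of them met the thresholds of a call given below. The transcript that holds Mir142, A430104N18Rik-001, had 25 and 28 counts in mature and 109 and 100 in elderly libraries (log2 fold change 1.87 ± 0.40, SE). F630028O10Rik-002, which holds Mir223, had 39 and 33 counts against 58 and 121 (log2 fold change 1.14 ± 0.40, SE), and Mir155-202 had 10 and 16 against 44 and 24 (log2 fold change 1.31 ± 0.57, SE). In these 3 each elderly library was above each mature one, and their microRNAs are known from blood cells. Of the Dleu2 members, only Dleu2-203 encloses annotated miRNA genes. Dleu2-203 had 59 and 129 counts in mature and 62 and 97 in elderly libraries (log2 fold change -0.39 ± 0.39, SE), and the ages overlapped. Dleu2-201 and Dleu2-202, which enclose no annotated miRNA gene, had both elderly libraries below both mature.

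Markers of several blood cell types were higher in both elderly libraries, while those of macrophages were mixed and those of megakaryocytes overlapped. Since the sums count only bases of 1 transcript, they are compared between libraries and not between lists. Summed CPM in mature 1, mature 2, elderly 1 and elderly 2 were 164, 84.1, 549 and 429 for erythroid cells, with 7 of 7 counted markers higher in both elderly libraries. Neutrophil markers summed to 2063, 1184, 4524 and 4585 CPM, with 6 of 8 higher, T cell markers to 1.26, 1.19, 12.2 and 5.40 CPM, with 5 of 5 higher, and macrophage markers to 15.3, 20.1, 28.6 and 42.1 CPM, with 3 of 5 higher and Cd68 lower. B-lineage and plasma cell markers summed to 16.6, 12.8, 79.9 and 81.4 CPM, with 5 of 6 counted markers higher and Cd79b at 0 in every library. Megakaryocyte markers (11.8, 219, 89.3 and 171 CPM, 0 of 4 higher in both elderly libraries) and endothelial markers (17.3, 27.1, 20.8 and 19.3 CPM, 1 of 4 higher) overlapped between ages. Markers of cycling cells summed to 299, 121, 836 and 633 CPM, with 5 of 5 higher, whereas 0 of 9 stromal markers were higher and 4 were lower. The part of these cells in the members' differences was not tested.

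Other miRNA hosts, also picked after their values were seen, differed in direction. They do not stand for all 19 members that hold miRNA genes. Mir1900-202 had 186 and 335 counts in mature and 458 and 609 in elderly libraries (log2 fold change 0.90 ± 0.29, SE), with both elderly libraries above both mature libraries on the CPM scale. A330023F24Rik-202, which holds Mir29b-2 and Mir29c, had 234 and 255 counts in mature and 142 and 252 in elderly libraries (log2 fold change -0.47 ± 0.30, SE).

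The ages were next compared over all members. Each elderly library was above each mature one, in CPM scaled by the trimmed mean of M-values (TMM), for 240 members (18.0%) and below for 275 (20.6%), and the ages overlapped for the other 820. Over all 42413 transcripts tested these shares were 20.4% above and 17.4% below, and over the 28307 transcripts with a count sum over 20 they were 20.4% and 19.7%. Since membership in these groups is defined by the age contrast, the counts are descriptions. LincRNA members contributed 126 above and 137 below, and antisense members 114 and 138. The median log2 fold change was 0.00065 for lincRNA and -0.09 for antisense members, and 1107 members (82.9%) were within 1 log2 unit of no change, against 84.6% of all transcripts with a count sum over 20.

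With an adjusted p under 0.05 and a log2 fold change over 2 in size, 7 members were called higher in elderly libraries (0.524%, against 0.712% of all tested and 1.07% of those with a count sum over 20) and 3 lower (0.225%, against 0.0990% and 0.148%). The members called higher were Gm15987-001, Gm15684-001, Gm17493-201, 5830432E09Rik-202, Gm15675-001, Gm16028-001 and A530040E14Rik-001, and those called lower were Gm2115-201, Gm14252-001 and 4921534H16Rik-001. Without elderly 1 or without elderly 2, the edgeR quasi-likelihood test called 0 members in either direction, and 85 and 72 members then had an unadjusted p under 0.05. Without mature 1 it called 15 higher and without mature 2 it called 16 higher. Single calls depended on the mature libraries too. Without mature 1, 5830432E09Rik-202, Gm15675-001 and Gm14252-001 were no longer called, and without mature 2, A530040E14Rik-001 was no longer called. DESeq2 called 3 higher and 2 lower among the 753 members to which it gave an adjusted p.

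**Figure D3:**
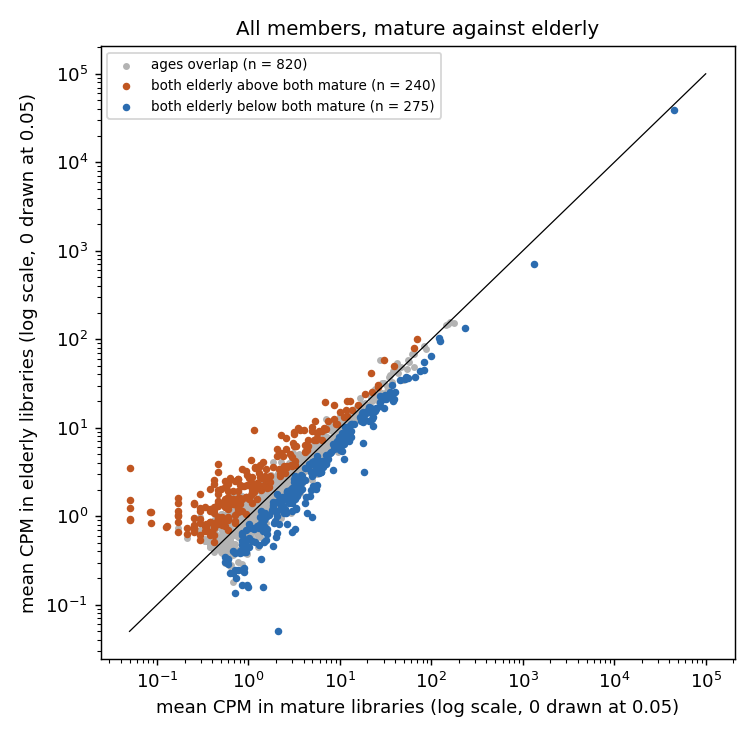
Mean CPM in the 2 mature (x axis) and 2 elderly libraries (y axis) of all 1335 members, both on log scales with a mean of 0 drawn at 0.05. Orange marks the 240 members with both elderly libraries above both mature, blue the 275 with both below, and grey the 820 that overlap, and the diagonal marks equal means. Points spread more widely at low CPM, and the isolated points at the upper right are Malat1-001 and Gm17589-201.

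Separated members of 1 CPM or more on average numbered 158 above (16.1% of 980) and 229 below (23.4%), against 20.8% and 20.4% of all 20989 transcripts at that level. The 12 with the largest log2 fold change in each direction are described here, with no test because the age contrast chose them. Gm17493-201 had the most counts in elderly libraries among the 12 higher members, with 13 and 14 counts in mature and 107 and 135 counts in elderly mice. In CPM this was 1.14 ± 0.0685 against 9.38 ± 0.219 (SD, n = 2), with a log2 fold change of 3.03 ± 0.43 (SE), and the replicates of each age were nearly equal. Gm17493-201 overlaps Shh, the gene of the signalling protein sonic hedgehog, on the opposite strand. Shh itself had 29 and 54 counts in mature and 213 and 354 in elderly libraries, a log2 fold change of 2.56 ± 0.35 (SE) for counts summed over the gene. All 773 own bases of Gm17493-201 lie inside 9530036O11Rik on the same strand, so the 2 lincRNAs are not independent. The other one, 9530036O11Rik-202, had 7 and 8 counts in mature and 45 and 20 in elderly libraries (log2 fold change 2.05). Both lincRNAs and the Shh gene sum were higher in both elderly libraries.

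Gm15987-001 (chr6:128901222-128925047), an antisense transcript within Clec2g, a C-type lectin gene, had 0 counts in each mature library and 48 and 39 in elderly libraries. Against 3 counts per mature library it was at least 13.7-fold higher. Clec2g itself had 0, 0, 2 and 0 counts in mature 1, mature 2, elderly 1 and elderly 2. These counts cover only gene bases that no other transcript covers.

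Gm15684-001 (chr8:122560094-122569187) lies inside Crispld2, which encodes a secreted cysteine-rich protein, on the opposite strand. It had 6 and 5 counts in mature and 28 and 78 in elderly libraries (log2 fold change 3.05 ± 0.60, SE), and Crispld2 had 50 and 105 counts against 258 and 508 (log2 fold change 2.07 ± 0.36, SE). 5830432E09Rik-202, inside the protein tyrosine phosphatase gene Ptpre, had 1 and 10 counts in mature and 34 and 48 in elderly libraries (log2 fold change 2.73 ± 0.68, SE, and 1.88 to 5.06 with 1 library left out), next to 7 and 2 against 30 and 16 for Ptpre. In both pairs the member and the gene around it were higher in both elderly libraries.

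Gm12000-001, inside the lymphoid transcription factor gene Ikzf1 on the opposite strand, had 4 and 6 counts in mature and 37 and 19 in elderly libraries, and Ikzf1 had 36 and 40 against 124 and 71. 4933416M07Rik-201, inside the vesicle trafficking gene Rab11fip1, had 8 and 6 counts against 37 and 25, and Rab11fip1 had 121 and 96 against 282 and 247. Gm13716-001 starts 233 bases from Lrrc55 in the divergent orientation and had 10 and 0 counts against 46 and 15, and Lrrc55 had 2 and 0 against 47 and 25. In each case both elderly libraries were higher for the member and for its partner.

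The other 4 had between 1 and 43 counts in any library. Gm16194-004 had 5 and 2 counts in mature and 22 and 24 in elderly libraries, near Rab44, a Rab GTPase gene with 269 and 153 counts against 417 and 522. Gm12530-001 had 6 and 3 counts against 26 and 26, Gm17173-001 had 12 and 1 against 23 and 43, and Gm16124-001 had 6 and 5 against 19 and 33. Of these last 3, the nearest or overlapping protein-coding gene was not higher in both elderly libraries: Ptpn3, a tyrosine phosphatase gene, had 1206 and 959 counts against 994 and 1115, Ptger2, a prostaglandin E2 receptor gene, had 79 and 69 against 73 and 70, and Cul5, a ubiquitin ligase scaffold gene, had 122 and 107 against 95 and 93.

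Outside this selection, 3 further members were called higher and are named after their values were seen. Gm15675-001, a lincRNA 1836 bases from the complement regulator gene Cd55, had 10 and 15 counts in mature and 64 and 44 in elderly libraries (log2 fold change 2.02 ± 0.52, SE), and Cd55 had 39 and 41 against 66 and 62. All 2594 own bases of Gm15675-001 lie inside the body of a gene on the opposite strand, whose reads cannot be told apart. Gm16028-001 and A530040E14Rik-001 both lie inside C130026I21Rik on the opposite strand, so they are not independent of each other. Gm16028-001 had 0 counts in each mature library and 15 and 17 in elderly libraries, at least 4.92-fold higher against 3 counts per mature library, and A530040E14Rik-001 had 1, 0, 19 and 20 counts in mature 1, mature 2, elderly 1 and elderly 2. C130026I21Rik had 0, 1, 25 and 41 counts, higher in both elderly libraries like the members within it. This region of chromosome 1 holds near-identical gene copies among which reads may have been split, so these counts are uncertain.

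Among the 12 lower members, Gm2115-201 (chr7:91677485-91726847) had the most counts, with 227 and 206 counts in mature and 20 and 66 in elderly libraries. In CPM this was 18.3 ± 1.12 against 3.15 ± 1.93 (SD, n = 2), with a log2 fold change of -2.51 ± 0.39 (SE) that ranged from -3.36 to -2.02 with 1 library left out. It is intergenic, with no own base inside another gene, and its nearest protein-coding gene, Fah, which encodes the last enzyme of tyrosine breakdown, lies 6822 bases away and had 792, 561, 510 and 759 counts in mature 1, mature 2, elderly 1 and elderly 2. The ages overlapped for Fah and not for Gm2115-201.

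4921534H16Rik-001 (chr9:97903839-97912594) had 18 and 32 counts in mature and none in either elderly library, which against 3 counts per elderly library is at least 8.97-fold lower. It lies inside Clstn2, a calsyntenin gene, on the opposite strand, and Clstn2 had 105 and 179 counts in mature and 11 and 42 in elderly libraries (log2 fold change -2.67 ± 0.47, SE). Gm14252-001 had 74 and 44 counts against 5 and 22 (log2 fold change -2.30 ± 0.54, SE, and -3.46 to -1.73 with 1 library left out), and lies inside 4921517L17Rik, which had 16 and 21 counts against 8 and 1. For both, the member and the opposite gene were lower in both elderly libraries.

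Members inside larger genes made up several of the rest. Gm12002-001, inside the actin nucleator gene Cobl, had 49 and 28 counts in mature and 3 and 17 in elderly libraries, and Cobl had 63 and 64 against 27 and 44. Gm15419-001, inside the type IV collagen gene Col4a2, had 35 and 13 counts against 9 and 7, and Col4a2 had 16318 and 17917 against 7990 and 17921. Gm15635-002, inside the organic anion transporter gene Slco2b1, had 11 and 26 counts against 2 and 13, and Slco2b1 had 368 and 450 against 168 and 295. In TMM-scaled CPM both elderly libraries were lower for each of these members and genes, by the smallest distance for Gm15635-002, at 0.926 CPM in mature 1 and 0.888 CPM in elderly 2.

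A330048O09Rik-201, 8380 bases from Id4, which encodes an inhibitor of basic helix-loop-helix factors, had 63 and 36 counts in mature and 13 and 24 in elderly libraries (log2 fold change -1.56 ± 0.49, SE), while Id4 had 3362 and 3740 against 2379 and 5598 and overlapped. Gm12280-001 had 63 and 40 counts against 12 and 16 (4.35 ± 1.34 against 1.08 ± 0.017 CPM, SD, n = 2), and its neighbour Trpv2, a cation channel gene, had 61 and 70 against 46 and 93. The remaining 4 were Gm16043-001, 4930455G09Rik-001, Gm16559-001 and 4933438A12Rik-001, with log2 fold changes from -2.12 to -1.70 and at most 42 counts in any library.

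**Figure D4:**
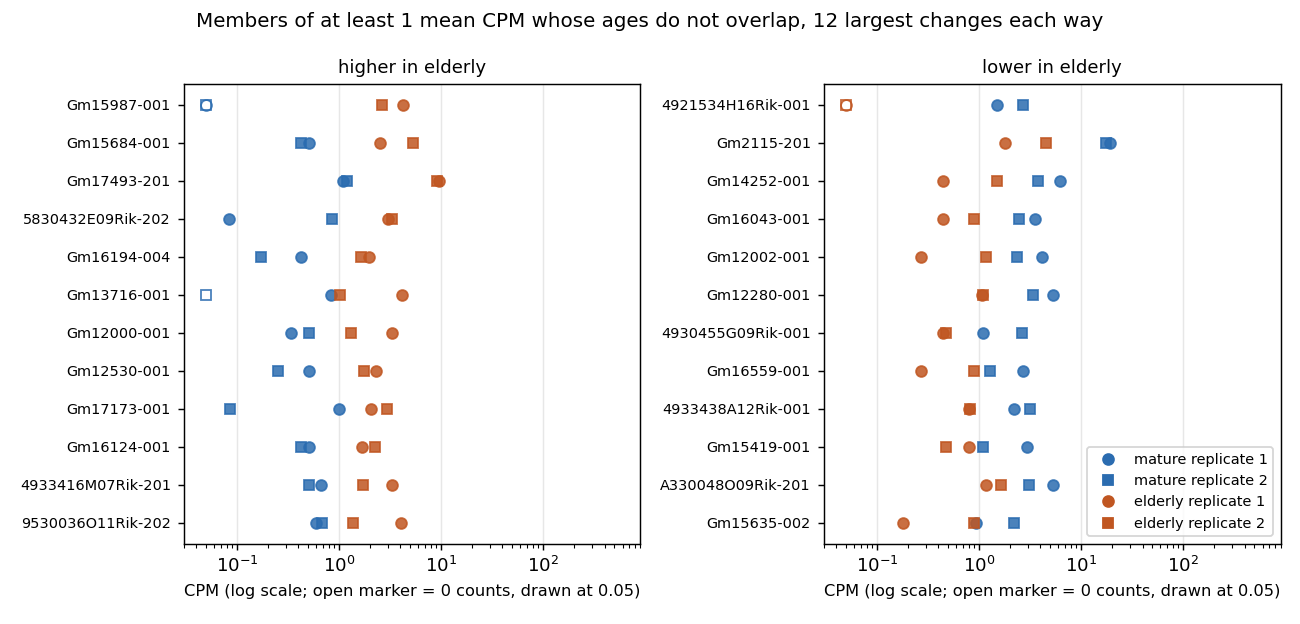
CPM (x axis, log scale) in each library of the 12 members with the largest increase (left) and the 12 with the largest decrease (right) among members of 1 CPM or more on average whose ages did not overlap, ordered by the size of the log2 fold change. Colours and shapes mark age and replicate, and open markers mark 0 counts, drawn at 0.05. Both mature libraries of Gm15987-001 and both elderly libraries of 4921534H16Rik-001 are at 0, and Gm17493-201 and Gm2115-201 have the highest CPM on their side.

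Changes of members were then set beside those of the protein-coding gene that they overlap on the opposite strand. Among 490 antisense members whose opposite gene had over 20 counts, 77 had both elderly libraries above both mature, and the opposite gene did so too in 37 of them and went the other way in 10. Of 113 antisense members with both elderly libraries below, the opposite gene was also below in 54 and above in 6. Over all 490 opposite genes, 19.4% were above and 26.1% below. Pearson's r between the log2 fold changes of member and gene was 0.56 over these 490 pairs, given as a description because all pairs share the same 4 libraries.

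The position of the own bases went along with this relation. Over 509 lincRNA and antisense members with every own base inside the opposite gene, r was 0.62 (Spearman's rho 0.42), over 175 with part of their own bases inside it was 0.32 (rho 0.28), and over 78 members with none inside it was 0.16 (rho 0.04). Of the 42 members wholly inside with a log2 fold change over 1, 17 had an opposite gene that was also over 1, as had 5.89% of all opposite genes in that group, and of the 43 under -1, 11 had one also under -1, against 3.93% of the group. With no own base inside, 3 of 13 members over 1 had an opposite gene over 1, against 3.85%. Reads from introns of the opposite gene would be counted in members of the first kind, and their part in these values was not tested.

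**Figure D5:**
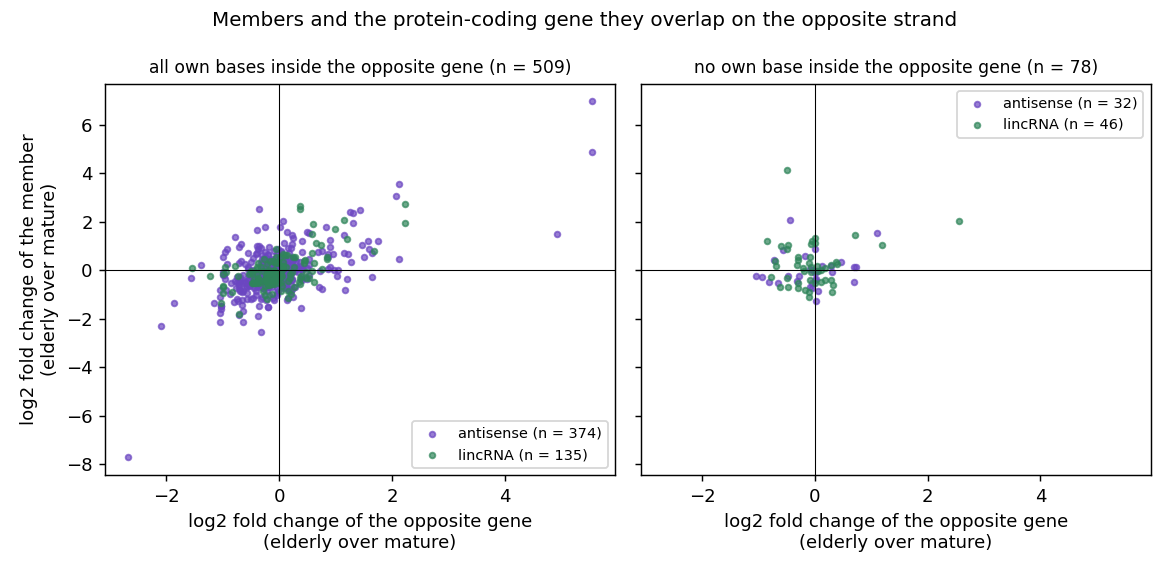
Log2 fold change (elderly over mature) of the overlapping protein-coding gene on the opposite strand (x axis) and of the member (y axis), for 509 members with all own bases inside that gene (left) and 78 with none inside (right). Purple marks antisense and green lincRNA members, and fitted values beyond 6 in size belong to members with 0 counts in 1 age. Points in the left panel lie along the rising diagonal more than those in the right panel.

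Some members varied more between libraries of 1 age than between ages. Over the 181 members with a mean of at least 10 CPM, the higher of the 2 libraries exceeded the lower by a median ratio of 1.17 in mature and 1.27 in elderly mice, and the ratio passed 2 for 10 members and 4 for 3, which were picked after their values were seen. Gm15564-001 had 623 and 25 counts in mature and 288 and 1313 in elderly libraries. D430018E03Rik-201 had 109 and 788 counts against 590 and 512, and Gm10151-201 had 63 and 329 against 206 and 168. In the latter 2, mature 1 was the low library, and for all 3 the ages overlapped.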

How the data were processed

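The authors deposited 1 file of whole-number counts per library, made per the labels and the methods from poly(A) RNA with a directional NEBNext kit, trimmed with cutadapt, aligned with HISAT2 to mm9 and counted per Ensembl transcript with featureCounts. The methods exempt certain samples from poly(A) selection under names that the labels here do not carry, and the labels give poly(A) RNA for each library. The strand setting and the handling of multi-mapping reads are not given in the sources used here. The 95883 transcripts were matched to GENCODE M1 on NCBIM37, and the 388 without a match held at most 0.0888% of a library. Library totals were 10472117 to 15650518, and 3 counts in 1 library correspond to 0.205 to 0.267 CPM.

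Counts were tested with edgeR 4.0.16 in R 4.3.3 (quasi-likelihood test, two-sided, TMM, trended dispersion, age as the only term) over all 42413 transcripts with a sum over 2, and p-values were Benjamini-Hochberg adjusted. Common dispersion was 0.0899. Calls needed an adjusted p under 0.05 and a log2 fold change over 2 in size. The test was also run on simulated counts with large changes planted in transcripts above a count minimum. That run does not check its behaviour for members with few counts. Alternatives were DESeq2 1.42.0, the exact test at a dispersion of 0.2 that the authors used, other filters and scalings, a replicate block and leaving out each library. Shares were compared by exact permutation over libraries. Start windows and motifs were read with scripts in pandas 2.3.3, and Wilson intervals cover counting error only. Start regions that overlap untranslated exons were not printed.

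Samples were grouped by the age in their titles. Replicates of 1 age differed beyond sampling noise (chi-square per degree of freedom 7.53 in mature and 6.90 in elderly over members). The edgeR p-values rest on the spread between these libraries, which may be technical. That spread was largely shared over all transcripts tested (median prior degrees of freedom 20.5), and only in part that of the single transcript. Members and lists were chosen with earlier results of these data known. Transcripts named with values are the 15 with the highest mean CPM, the 12 with the highest and the 12 with the lowest log2 fold change among members averaging 1 CPM or more whose ages did not overlap, and members of a list of known noncoding RNAs. Further ones are marked where they were chosen after their values were seen.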

Additional observations from a re-analysis of the deposited data

How the results depend on the processing

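The counts of members called depended on the fit. The share of all transcripts called was computed for the main fit only. A difference particular to the members can therefore not be read from the counts under other fits. For calls higher in elderly libraries, 7 in the edgeR quasi-likelihood test, DESeq2 gave 3, the robust quasi-likelihood fit 14, no filter on low counts 18, scaling by library size alone 3, a log2 fold change over 1 gave 11 and counts summed per gene gave 4, and leaving out 1 library gave 0 to 16. For calls lower, 3 in that test, the exact test at a dispersion of 0.2 gave 1, the robust fit 6, no filter 6, a log2 fold change over 1 gave 5, counts summed per gene gave 1, and leaving out 1 library gave 0 to 7. Without 1 library an age has a single sample, which is assumed to vary like those of the other age. With a replicate block, 15 were called higher (6 of the 7 among them) and 5 lower (all 3 among them), but the replicate numbers are only numbers, since deviations of same-numbered libraries correlated at 0.0256 over all transcripts. Members with both elderly libraries above both mature numbered 156 of 969 at a count sum over 50 and 95 of 670 over 100. Those below numbered 226 of 969 and 173 of 670. Fewer transcripts enter by construction at a higher minimum, and the members below outnumbered those above at each minimum. Shares over all transcripts at these minima were not computed. The causes of these dependences on the processing were not tested. The difference in share, -0.685 percentage points, kept its sign under its 3 alternatives, from -0.681 to -0.117. Of 769 values of 61 named transcripts under 13 alternatives, 0 were called with the opposite sign, and 31 changed sign, none of them among the 29 transcripts with a log2 fold change over 1 in size. DESeq2 gave no adjusted p to 582 members. Among them were 4921534H16Rik-001, Gm16028-001 and A530040E14Rik-001, which it therefore did not call. Of the 10 members called, 5830432E09Rik-202 and Gm15675-001 were not called by DESeq2, the exact test, the stricter filter (filterByExpr) or library size scaling, Gm15675-001 also not with the block or a prior count of 2, Gm14252-001 not by the exact test or library size scaling, A530040E14Rik-001 and Gm16028-001 not with library size scaling, and Gm2115-201 not by the exact test. Precision was limited by 2 libraries per age and a median sum of 101 counts per member.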
